A study of Mus musculus with 19 samples.

Results

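The dorsolateral lobe (DLP) and the ventral lobe (VP) of the mouse prostate were compared in animals on a control diet, as DLP minus VP. The comparison covered probe sets, other than the array's own controls, that lay above the median of their own array on at least 4 of the 10 control arrays. This held for 23573 of 45037 probe sets, which carried 11274 named genes. The other 21464 probe sets were left out of the comparison, 18121 of them above the median on none of the 10 arrays.

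RNA came from whole lobes of C57BL/6J mice, aged 8 weeks at the start, which then ate a control diet or a high fat diet for 12 weeks, and 1 sample was hybridised per array. Group titles gave 5 control VP arrays and 5 control DLP arrays, and 5 VP and 4 DLP arrays of the high fat diet that served here only to look at the same lobe difference again. The dorsal and lateral lobes form 1 sample in DLP and cannot be told apart. Because no label links an array to its mouse, the p-values rest on the spread among these samples alone.

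The rodent prostate consists of paired lobes that bud from the urogenital sinus at different positions and keep distinct duct patterns in the adult. Each lobe is a tree of ducts lined by tall secretory (luminal) cells over scattered basal cells, wrapped in smooth muscle and supplied by autonomic nerves. The secretions of the lobes differ and mix in the ejaculate, where enzymes, inhibitors, crosslinking proteins, ions and glycoproteins act on the seminal fluid and the copulatory plug.

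The deposited scale was inferred to be log10 with an offset of 1, and all levels and differences below are in log2 units. Every array holds the same set of values in another order, so a value reflects the rank of a probe set on its array, and a change shared by most genes would be invisible. The array median was 1.85, and where the lower lobe lies below it the size of a fold is uncertain. In bulk tissue, fewer cells of a type and less RNA per cell cannot be told apart. Across the probe sets compared, the 10 arrays correlated at 0.974 to 0.988 within VP and at 0.984 to 0.990 within DLP, against 0.896 to 0.928 between the lobes. The median SD of a probe set was 0.18 in VP and 0.14 in DLP. As a sign of RNA quality, the 3′ minus 5′ signal of Gapdh was lower in DLP by a difference of -0.25 (two-sided exact permutation p = 0.00794, the smallest that 5 against 5 can give). The same measure for Actb differed by 0.12 (exact permutation p = 0.151), and the part of RNA quality in the lobe differences was not tested.

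The labelled tissue was checked against known genes. Probasin (Pbsn), Hoxb13, Msmb, Mmp7 and Spink1 were measured, and Sbp was not analysed here. Mmp7 and Pbsn, taken as dorsolateral genes, were higher in DLP, and Spink1, taken as a ventral gene, was higher in VP. Msmb did not pass, with values of 9.62 to 12.73 in VP and 12.48 to 12.73 in DLP.

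The lobes differed across a large part of the array. Of 23573 probe sets, 11693 passed limma's adjusted p of 0.05, which is 49.6%, with 5697 higher in DLP (24.2%) and 5996 lower (25.4%). Most differences were small. The median fold of the probe sets that passed was 1.44, and 1976 passed with more than a 2-fold difference (8.38%). A difference of over 4-fold was seen in 412 probe sets, over 16-fold in 68 and over 64-fold in 14. Arrays of the lobes did not overlap for 8531 probe sets (36.2%). With 1 probe set per gene, 5987 of 11274 genes passed (53.1%), 3027 higher in DLP (26.8%) and 2960 lower (26.3%), and these shares are the background for every list below. Over 4-fold there were 139 genes higher and 131 lower in DLP, together 2.39% of genes.

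**Figure D1:**
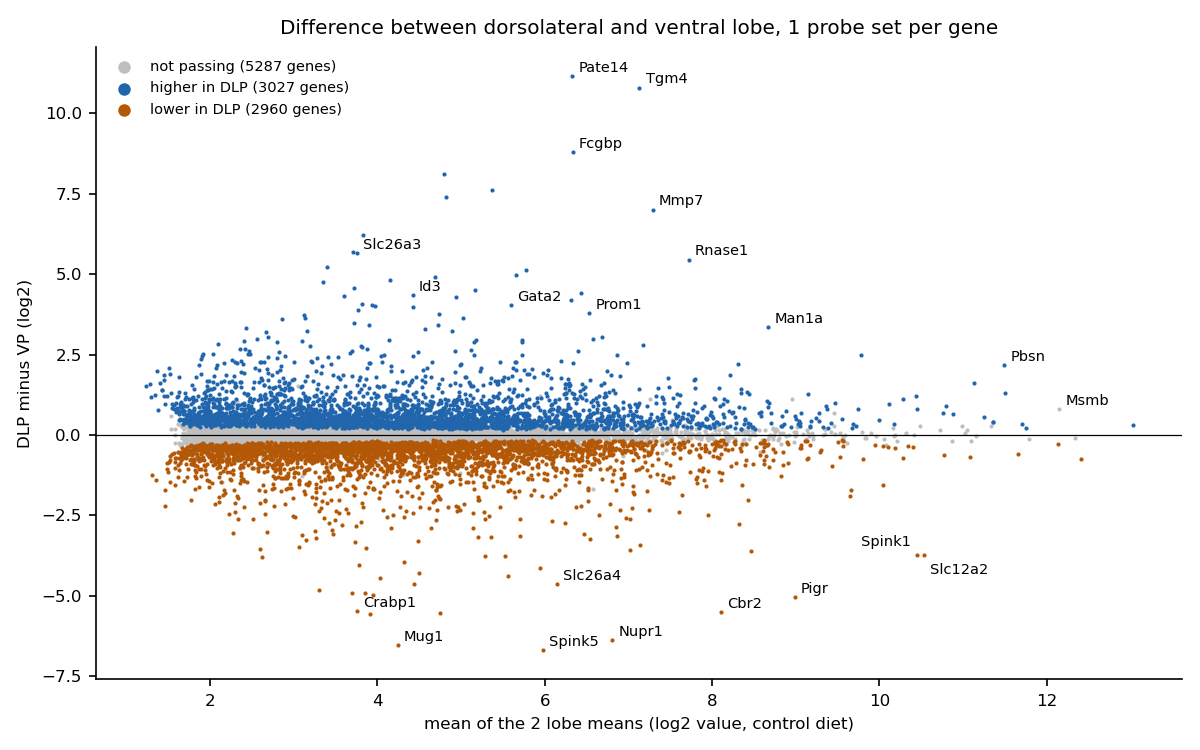
Difference between the lobes (DLP minus VP, log2) against the mean of the lobe means (log2) for each of 11274 genes on the control diet, with genes past the threshold in colour. Tgm4 and Pate14 lie above 10 on the difference axis, and Spink5, Mug1 and Nupr1 lie below -6.

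Detection followed the same split. Of the 23573 probe sets, 18656 lay above the median on all 10 arrays and 4026 on some arrays of each lobe, and 9361 (50.2%) and 1481 (36.8%) of these passed. Another 445 lay above the median on DLP arrays only and 446 on VP arrays only. These last probe sets entered through 1 lobe and had to differ, and 426 and 425 of them are among the 11693 that passed and, where named, in the list counts. For genes measured above the median in 1 lobe only, a difference and its adjusted p are a description. Of the genes over 4-fold, 95 had a mean below the array median in the lower lobe. Probe sets just inside the filter, above the median on exactly 4 arrays, numbered 743 with a median level of 1.77, and 824 just outside, at exactly 3 arrays, had a median level of 1.68.

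Proteins secreted into the seminal fluid held the largest differences in the direction of DLP. Of 17 tested genes of secreted prostate and seminal proteins, 9 were higher in DLP, 2 lower and 6 did not pass, with a median difference of 0.79 against 0.00 over all genes. Among members above the median on all 10 arrays, 3 were higher and the median was 0.10. Tgm4 is the prostate transglutaminase, which crosslinks seminal proteins into the copulatory plug. Its values were 2.02, 1.72, 1.76, 1.36 and 1.81 on the VP arrays and 12.59, 12.31, 12.31, 12.73 and 12.73 on the DLP arrays. Every DLP array was near the top of the scale, and 4 of the 5 VP arrays lay below the array median, so the groups were far apart. The difference was 10.80 ± 0.12 (SE), with limma's adjusted p = 2.7e-15. Pate14, of the PATE family of small cysteine-rich secreted proteins, read 1.01, 0.14, 1.10, 1.03 and 0.43 in VP and 12.07, 11.74, 12.07, 11.84 and 11.81 in DLP. All VP values of Pate14 were below the median, and the difference was 11.17 ± 0.17 (SE, adjusted p = 4.2e-14).

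Fcgbp, a mucin-like protein that binds the Fc part of IgG, gave 2.64, 2.01, 2.18, 1.82 and 1.03 in VP and 10.36, 10.31, 10.60, 11.07 and 11.34 in DLP. DLP arrays 4 and 5 were highest and no VP array came near them. The galactosidase-like Glb1l3 and the fibrinogen-like Fgl1 ranged from 0.15 to 0.97 and from 1.11 to 1.84 in VP, and from 8.68 to 8.96 and from 9.02 to 9.36 in DLP. Gsdma, a pore-forming gasdermin, ranged from 0.93 to 1.36 in VP and from 8.39 to 8.61 in DLP, a difference of 7.40 ± 0.09 (SE, adjusted p = 2.7e-15). All VP values of Glb1l3, Fgl1 and Gsdma lay below the array median.

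Probasin is an androgen-regulated secretory lipocalin whose promoter is widely used to drive transgenes in prostate epithelium. Pbsn read 11.55, 7.40, 11.09, 10.03 and 11.95 in VP and 12.73, 12.73, 12.39, 12.48 and 12.59 in DLP. It was near the top of the scale on every DLP array and high but scattered in VP, with VP 2 lowest, and the groups did not overlap. The difference was 2.18 ± 0.64 (SE, adjusted p = 0.0125), and it no longer passed without control DLP arrays 2, 4 and 5, with a robust variance prior or at a threshold of 0.01. Msmb, the beta-microseminoprotein, gave 12.59, 9.62, 12.59, 11.26 and 12.73 in VP, so the same VP array was lowest.

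Secreted proteins lower in DLP were fewer in the list, 2 on all arrays and 4 without VP 1. Mug1, a murinoglobulin of the alpha-2-macroglobulin family of protease inhibitors, read 6.15, 8.68, 6.73, 8.07 and 7.89 in VP and 0.34, 2.63, 0.88, 0.26 and 0.80 in DLP. Only DLP 2 rose above the array median, and the difference was -6.52 ± 0.50 (SE, adjusted p = 2.1e-07). Acpp, the prostatic acid phosphatase, ranged from 3.64 to 4.19 in VP and from 1.13 to 1.66 in DLP, a difference of -2.46 ± 0.14 (SE, adjusted p = 1.2e-08). Azgp1, a zinc-binding glycoprotein, did not pass, at -0.32 ± 0.15 (SE, adjusted p = 0.103), but passed without VP 1 or without VP 3.

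**Figure D2:**
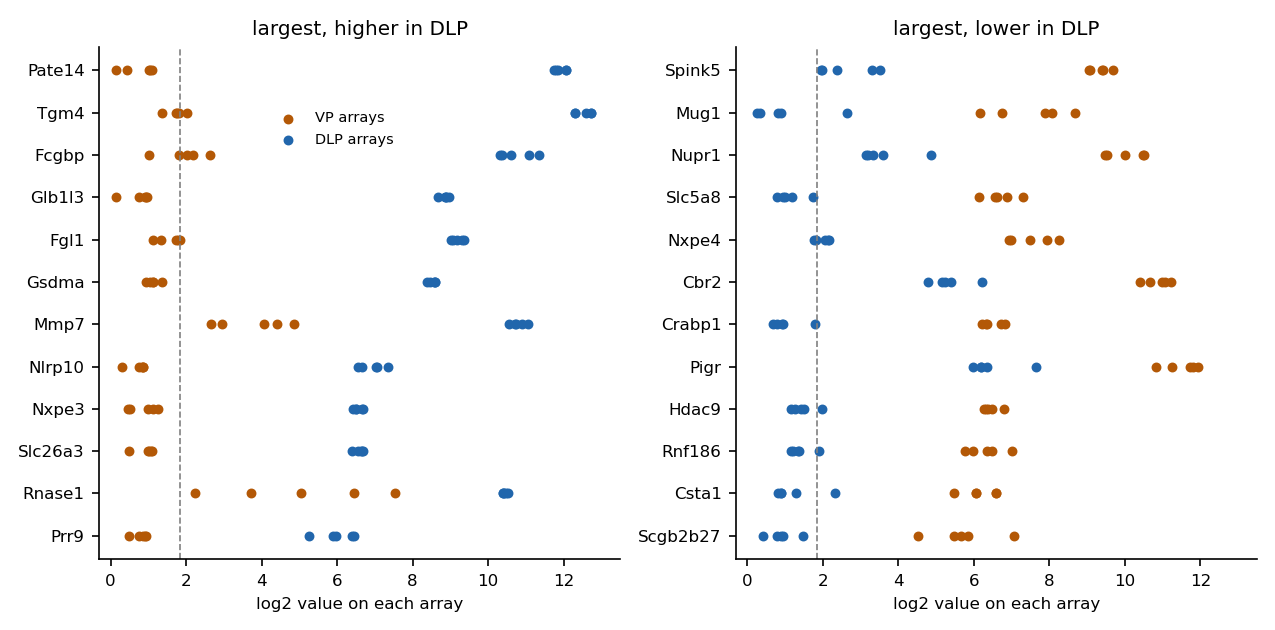
Values (log2) on each of the 5 VP and 5 DLP control arrays for the 12 genes with the largest difference in each direction, with the array median as a dashed line. Tgm4 lies between 1.36 and 2.02 in VP and between 12.31 and 12.73 in DLP, whereas Rnase1 spreads from 2.23 to 7.55 in VP.

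The start-site sequences of genes with large lobe differences are shown because the androgen-regulated Pbsn promoter is the best known of this tissue and the others differ in direction. Each is the 150 bases before the annotated start on the gene's strand, from RefSeq on GRCm38.p6. They lie at chr9:123034591-123034740 on the plus strand for Tgm4, chr9:36638603-36638752 on the minus strand for Pate14, chrX:77853501-77853650 on the minus strand for Pbsn, chr6:121838391-121838540 on the plus strand for Mug1, chr1:130826534-130826683 on the plus strand for Pigr and chr9:48361891-48362040 on the plus strand for Nxpe4. Capitals mark the letters AGAACA or TGTTCT, a half-site of the androgen response element on either strand, and TATAAA on the gene's strand.
Tgm4: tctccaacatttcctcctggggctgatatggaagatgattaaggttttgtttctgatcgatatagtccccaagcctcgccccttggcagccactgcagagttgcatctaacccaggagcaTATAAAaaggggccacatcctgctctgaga
Pate14: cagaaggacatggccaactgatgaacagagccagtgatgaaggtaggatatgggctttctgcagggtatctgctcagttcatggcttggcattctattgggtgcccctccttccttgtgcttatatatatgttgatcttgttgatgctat
Pbsn: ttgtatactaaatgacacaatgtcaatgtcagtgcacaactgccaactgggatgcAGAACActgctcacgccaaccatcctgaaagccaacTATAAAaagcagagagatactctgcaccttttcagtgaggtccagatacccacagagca
Mug1: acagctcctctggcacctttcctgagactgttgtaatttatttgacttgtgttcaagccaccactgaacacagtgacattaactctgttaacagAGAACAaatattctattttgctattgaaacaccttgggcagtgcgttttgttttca
Pigr: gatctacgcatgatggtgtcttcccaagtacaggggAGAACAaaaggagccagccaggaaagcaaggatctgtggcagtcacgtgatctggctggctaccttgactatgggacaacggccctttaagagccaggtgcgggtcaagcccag
Nxpe4: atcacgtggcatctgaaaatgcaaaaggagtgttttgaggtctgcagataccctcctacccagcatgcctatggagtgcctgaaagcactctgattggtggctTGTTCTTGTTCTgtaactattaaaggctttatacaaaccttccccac
The Pbsn window held AGAACA and TATAAA, that of Tgm4 TATAAA alone, those of Mug1 and Pigr AGAACA, that of Nxpe4 TGTTCT 2 times in tandem and that of Pate14 none of these letters. AGAACA or TGTTCT occurred in 9.62% of 27025 such windows of all promoters and in 4.86% of those of 9131 tested genes. Among genes over 4-fold, 104 in each direction had a window, and 6.73% of those higher in DLP and 7.69% of those lower held it. TATAAA occurred in 5.26% of all windows, in 2.34% of tested genes, in 8.65% of the genes higher in DLP and in 10.6% of those lower. AGATAA or TTATCT, the GATA letters, stood in 5.76% of all windows, 2.64% of tested genes, 4.81% of the genes higher in DLP and 1.92% of those lower. TGTTTA or TAAACA, the forkhead letters, stood in 6.81%, 3.44%, 5.77% and 3.85% of the same sets. A match is a description of the letters, and no share was tested.

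Proteases were divided between the lobes, and their inhibitors were more often lower in DLP. Of 18 tested kallikreins and other proteases, 8 were higher in DLP and 5 lower, with a median of 0.17 that was 0.29 without DLP 3 and 0.0014 without DLP 2, 4 and 5. Mmp7 (matrilysin), a matrix metalloproteinase of gland ducts, read 4.41, 2.66, 4.06, 2.95 and 4.85 in VP and 10.55, 10.73, 10.74, 10.90 and 11.06 in DLP. Its DLP values were close together and its VP values were spread but all far lower, with a difference of 7.01 ± 0.34 (SE, adjusted p = 2.8e-09). Cpe, a carboxypeptidase that trims prohormones, was 7.40-fold higher, and Dpp4, a cell-surface dipeptidyl peptidase, was 3.84-fold higher. Tmprss4, a membrane serine protease, was 4.41-fold lower with DLP below the array median, and the lysosomal Ctsl and the channel-activating Prss8 were 2.48-fold and 2.12-fold lower.

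Of 25 tested protease inhibitors, 5 were higher in DLP and 11 lower, with a median of -0.28 that was -0.15 without VP 1. Spink5, a multidomain Kazal inhibitor best known from skin, read 9.41, 9.68, 9.09, 9.39 and 9.05 in VP and 1.98, 3.31, 2.38, 3.51 and 1.95 in DLP. The VP values lay within a narrow range and DLP 2 and DLP 4 stood above the other DLP arrays. The difference was -6.70 ± 0.28 (SE, adjusted p = 7.1e-10). Spink1, the Kazal trypsin inhibitor, gave 12.31, 12.48, 12.31, 12.39 and 12.07 in VP and 6.96, 11.81, 7.63, 10.21 and 6.34 in DLP. On DLP 2 Spink1 came close to its VP values without reaching them, and the difference was -3.72 ± 0.82 (SE, adjusted p = 0.00199).

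Csta1, a cytoplasmic inhibitor of cysteine proteases, ranged from 5.47 to 6.60 in VP and from 0.82 to 2.32 in DLP. In the other direction, Spink8 ranged from 1.70 to 3.76 in VP and from 6.31 to 6.69 in DLP, a difference of 3.98 ± 0.29 (SE, adjusted p = 1.7e-07). Cst3, the secreted cystatin C, was 2.69-fold higher in DLP, and Serpinb1a, an inhibitor of neutrophil proteases, was 3.55-fold higher. The Kazal inhibitors therefore did not share a direction, with Spink1 and Spink5 lower and Spink8 higher in DLP.

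Transporters of ions and water showed some of the clearest exchanges of family members between the lobes. Of 39 tested genes, 8 were higher in DLP and 15 lower, with a median of -0.12. Slc26a3, an exchanger of chloride for bicarbonate, read 1.08, 1.02, 0.48, 1.00 and 1.10 in VP and 6.63, 6.40, 6.65, 6.55 and 6.68 in DLP. Its relative Slc26a4 (pendrin), also an anion exchanger, read 8.32, 8.37, 8.55, 8.65 and 8.47 in VP and 3.49, 4.53, 3.83, 4.06 and 3.20 in DLP. The 2 exchangers stood in opposite order, at 5.65 ± 0.12 (SE, adjusted p = 8e-13) and -4.65 ± 0.19 (SE, adjusted p = 6.9e-10). Slc26a3 lay below the array median on every VP array and entered the comparison through DLP alone. Its lack of overlap was therefore fixed by the filter, and its adjusted p is a description. Slc26a4 lay above the median on every array of both lobes and did not overlap.

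Atp12a, the non-gastric proton and potassium pump, ranged from 1.80 to 4.62 in VP and from 8.29 to 8.41 in DLP, and the carbonic anhydrase Car2 was 3.25-fold higher in DLP. Slc5a8, a sodium-coupled carrier of monocarboxylates, ranged from 6.13 to 7.30 in VP and from 0.78 to 1.75 in DLP, below the array median on every DLP array. Trpv6, an epithelial calcium channel, ranged from 5.53 to 6.82 in VP and from 1.63 to 2.16 in DLP. Slc12a2, the sodium, potassium and chloride cotransporter that loads secretory cells with chloride, was named after its values were seen. It ranged from 12.18 to 12.59 in VP and from 7.93 to 9.12 in DLP, a difference of -3.74 ± 0.17 (SE, adjusted p = 1.7e-09), and its 3 probe sets were all lower.

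The prostate is known for accumulating zinc and citrate, and genes for these were split. Of 36 tested, 11 were higher in DLP and 10 lower, with a median of 0.08. The zinc exporter Slc30a2 ranged from 1.29 to 2.74 in VP and from 5.21 to 5.60 in DLP, a difference of 3.47 ± 0.22 (SE, adjusted p = 3.2e-08). The importer Slc39a8 was 5.58-fold higher in DLP and the importer Slc39a6 4.73-fold lower, both without overlap of arrays. Slc30a4 was 2.17-fold lower, and the metallothionein Mt3 ranged from 0.59 to 1.46 in VP and from 2.43 to 3.20 in DLP. Polyamine genes, another prostatic speciality, counted 6 higher and 5 lower of 17, with a median of 0.17 that was 0.11 without VP 3, 0.05 without DLP 2 and -0.07 with the mean of the probe sets per gene. Odc1, the rate-limiting enzyme of polyamine synthesis, was 1.82-fold lower in DLP, Slc3a2, a subunit of amino acid carriers, 2.49-fold higher, and Arg1 fell from 2.83 to 5.09 in VP to 1.31 to 3.03 in DLP, with overlap through DLP 1.

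Genes for glycan building and for protein folding in the endoplasmic reticulum (ER) were mostly higher in DLP among those that passed. Of 38 tested mucins and glycosyltransferases, 18 were higher and 8 lower, with a median of 0.23. Man1a, a Golgi mannosidase that trims N-glycans, read 7.11, 6.63, 6.85, 6.90 and 7.51 in VP and 10.37, 10.21, 10.18, 10.46 and 10.50 in DLP. The lobes were separated by more than the range within either, at 3.35 ± 0.14 (SE, adjusted p = 6.1e-10). Fut9 and Fut8, fucosyltransferases of outer and core fucose, differed by 3.87 ± 0.12 and 2.97 ± 0.15 (SE). Lower in DLP were Galnt7 (6.65-fold) and Galnt3 (3.02-fold), which act on O-glycans of mucin type, and B4galnt2 (4.68-fold).

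Of 61 tested genes of ER folding, export and the unfolded protein response, 40 were higher in DLP and 7 lower, against 26.8% and 26.3% of all genes, with a median of 0.43. Atf6, a stress sensor of the ER that becomes a transcription factor, read 4.64, 4.74, 4.42, 4.29 and 4.50 in VP and 6.80, 6.67, 6.78, 6.79 and 6.93 in DLP. The 2 sets of values were tight and apart, at 2.28 ± 0.09 (SE, adjusted p = 4e-10), and its 3 probe sets were all higher. Creld2 and the disulphide isomerase Pdia4 were 3.64-fold and 2.75-fold higher. The oxidase Ero1b was 3.30-fold lower and the translocon protein Ssr1 differed by -0.59, so the list did not move as a block. Without control DLP arrays 2, 4 and 5 the number lower was 4. Bhlha15 (Mist1), a transcription factor of cells with a high secretory load, was lower in DLP, 2.78-fold.

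**Figure D3:**
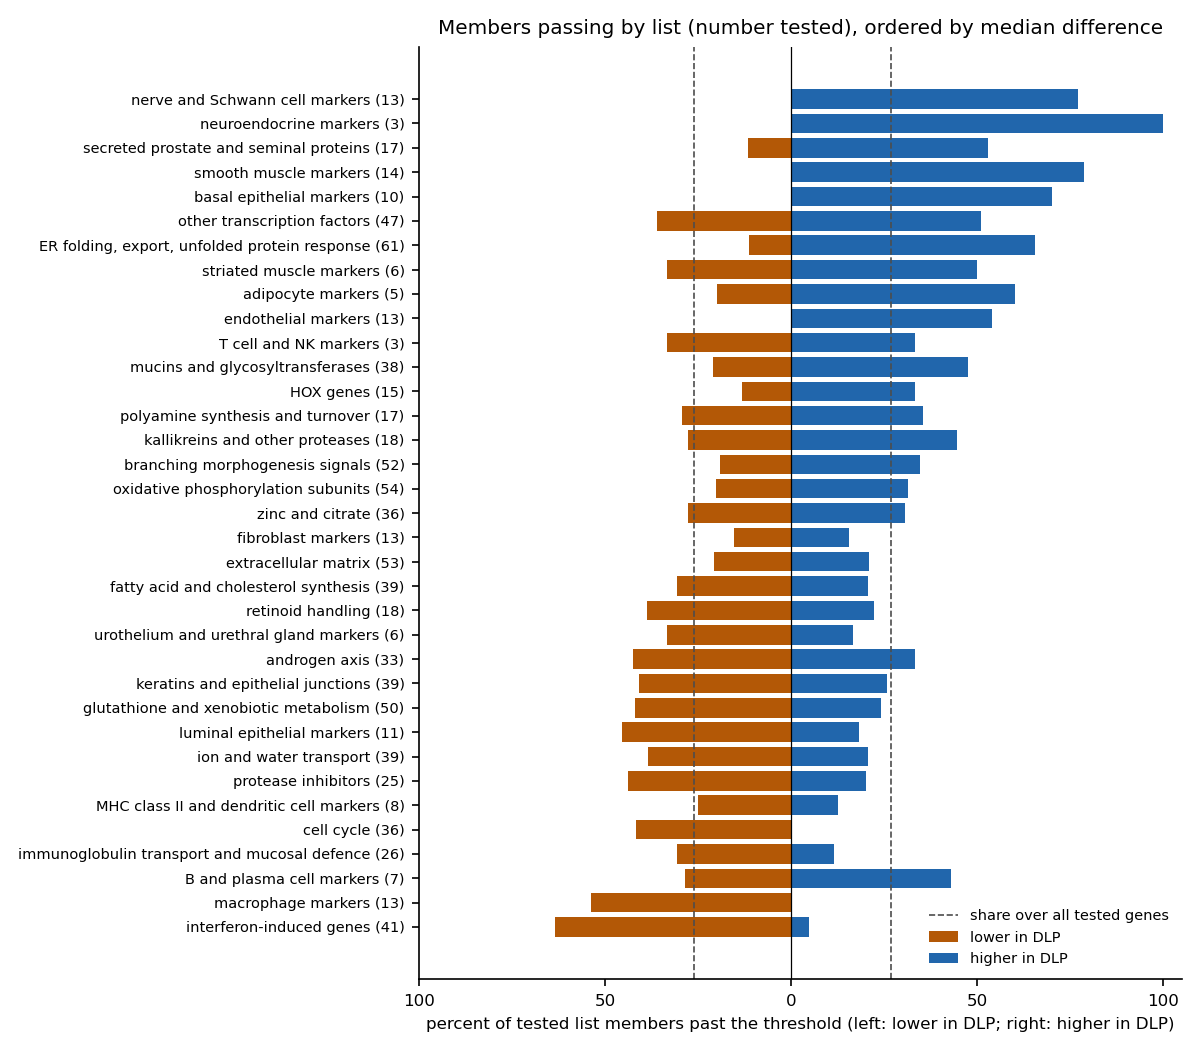
Share of the tested members of each list that were higher in DLP (right, percent) or lower (left, percent), with the number tested in brackets and the shares over all genes as dashed lines. The ER list lies far to the right, with 40 of 61 members higher, and the interferon list far to the left, with 26 of 41 members lower.

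Transcription factors separated the lobes in both directions. Of 47 tested factors of the prostate and urogenital tract outside the HOX clusters, 24 were higher in DLP and 17 lower, with a median of 0.46 that was 0.28 without VP 3 and 0.19 with an offset of 8. Id3, which blocks basic helix-loop-helix factors, read 2.23, 2.15, 2.36, 2.56 and 1.93 in VP and 6.75, 6.64, 6.46, 6.48 and 6.68 in DLP. Gata2, a zinc finger transcription factor of the urogenital tract, read 3.72, 2.91, 3.89, 3.29 and 4.08 in VP and 7.71, 7.53, 7.75, 7.32 and 7.77 in DLP. Neither gene overlapped between the lobes, with differences of 4.36 ± 0.11 and 4.03 ± 0.19 (SE). Satb1, a chromatin organiser, was higher by 3.75 ± 0.16 (SE), with all 4 of its probe sets in that direction. Klf5, a Krüppel-like factor of epithelia, and Runx1 were 3.74-fold and 2.58-fold lower in DLP. Foxa1, a pioneer factor of luminal cells, ranged from 9.05 to 9.54 in VP and from 8.30 to 8.71 in DLP and was 1.84-fold lower.

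HOX genes set position along the body axis, and the most posterior of them pattern the urogenital tract. Of 39 listed, 15 were tested, 5 were higher in DLP and 2 lower, and the median was 0.23, with 8 higher without VP 5. Hoxb13, the prostate's own posterior member, read 8.65, 8.79, 8.58, 8.90 and 8.61 in VP and 7.64, 7.77, 7.61, 7.97 and 7.75 in DLP. The ranges did not meet, and the difference was -0.96 ± 0.09 (SE, adjusted p = 1.2e-06). Hoxb9 ranged from 1.42 to 1.68 in VP, below the array median, and from 3.50 to 3.86 in DLP, and Hoxa9 was 2.68-fold higher in DLP. Hoxd8 was 1.85-fold higher, and Hoxa13 differed by -0.33 ± 0.11 (SE, adjusted p = 0.0245), a call lost without control VP 1, VP 3, VP 4 or DLP 5. Hoxa10 did not pass, at 0.46 ± 0.19 (SE, adjusted p = 0.0639), but passed without VP 3, VP 5 or DLP 1.

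Genes of the androgen axis were divided, with 11 higher in DLP and 14 lower of 33 tested and a median of -0.08. Slc45a3, a transporter that responds to androgen, ranged from 8.42 to 8.87 in VP and from 7.06 to 7.29 in DLP. Fkbp5, a co-chaperone induced by steroid receptors, ranged from 7.56 to 8.31 in VP and from 6.36 to 6.80 in DLP. Both were lower in DLP without overlap, 2.66-fold and 2.41-fold. Acsl3, an acyl-CoA synthetase that also responds to androgen, was 3.16-fold higher. Srd5a3 did not pass, at 0.18 ± 0.09 (SE, adjusted p = 0.104), but passed without VP 4. Of the 4 probe sets of Srd5a3, 1 other than the one used here passed, higher in DLP. Androgen-responsive genes thus stood on each side, Pbsn and Acsl3 higher and Slc45a3 and Fkbp5 lower in DLP.

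Signals of ductal branching were tested in 52 genes, of which 18 were higher in DLP and 10 lower, with a median of 0.11. Bmp7, a ligand that restrains branching, was 4.40-fold higher in DLP, as were the receptor Notch1 (2.59-fold) and the Notch target Hey1, which ranged from 0.85 to 1.70 in VP and from 3.35 to 3.76 in DLP. Lower in DLP were the R-spondin receptor Lgr5 (4.14-fold), the hedgehog transducer Smo (2.48-fold) and the activin antagonist Fst (2.36-fold). Arrays of the lobes did not overlap for any of these 6 genes, against 36.2% of all probe sets without overlap. The 6 were picked as the largest passing differences of the list in each direction, which favours genes without overlap. Hey1 lay below the array median on every VP array and entered through DLP alone, so its arrays could not overlap.

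Among genes of immunoglobulin transport and mucosal defence, Pigr and Cxcl17 were lower in DLP and Defb1 and Nlrp10 higher. Of 26 tested, 3 were higher in DLP, 8 lower and 15 did not pass, with a median of -0.46, and without DLP 2, 4 and 5 the number lower was 5 and the median -0.08. The list's mean deviation from each gene's own mean over the 10 arrays was 0.85, -0.49, 0.89, 0.44 and -0.27 on the VP arrays, 0.79 on DLP 1 and -0.58 to -0.50 on the other DLP arrays, so the lobes overlapped. Pigr, the receptor that carries IgA through the epithelium, read 11.24, 11.81, 11.95, 11.71 and 10.81 in VP and 7.65, 6.36, 6.18, 5.97 and 6.18 in DLP. DLP 1 was the highest DLP array and still lay below every VP array, and the difference was -5.04 ± 0.29 (SE, adjusted p = 1.6e-08). Cxcl17, a chemokine of mucosal surfaces, ranged from 5.30 to 7.55 in VP and from 1.91 to 3.45 in DLP, with DLP 1 again highest, and Cxcl15 differed by -3.02 ± 0.23 (SE). Defb1, an antimicrobial beta-defensin, was 5.65-fold higher in DLP, and Nlrp10, of the NLR family, ranged from 0.31 to 0.86 in VP and from 6.55 to 7.35 in DLP.

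Igha, the heavy chain of IgA, read 5.78, 2.99, 5.71, 7.11 and 4.21 in VP and 4.48, 3.75, 1.43, 0.80 and 1.73 in DLP. The groups overlapped, and the difference was -2.72 ± 0.79 (SE, adjusted p = 0.0113), a call lost with a robust variance prior, at a threshold of 0.01 and without DLP 2, 4 and 5. Jchain and Ighm did not pass, at -1.24 ± 0.68 and -1.67 ± 0.86 (SE), but both passed without VP 2. Of 7 tested B and plasma cell markers, 3 were higher in DLP, 2 lower and 2 did not pass, with a median of -0.67. The number lower was 0 at a threshold of 0.01 and 0 without DLP 2, 4 and 5. For these 7 markers the mean deviation of each gene from its own mean over the 10 arrays was taken. By this measure VP 1, VP 3 and VP 4 stood at 0.43, 1.23 and 0.89 and VP 2 and VP 5 at -0.97 and -0.37. DLP 1 stood at 0.51 and the other DLP arrays between -0.74 and -0.16. Cd79a and Cd79b, which define B cells, lay below the array median on all 10 arrays, and the part of B and plasma cells in the immunoglobulin differences was not tested.

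Interferon-induced genes were lower in DLP. Of 41 tested, 26 were lower and 2 higher, with a median of -0.79, the lowest of the lists. Ifit1 read 5.89, 4.52, 5.52, 3.99 and 3.36 in VP and 1.76, 2.11, 2.50, 1.83 and 2.13 in DLP. VP 1 and VP 3 were highest, and the lobes did not overlap for Ifit1, whose difference was -2.59 ± 0.39 (SE, adjusted p = 9.8e-05). Rtp4 and Oas1a were 5.88-fold and 3.19-fold lower. B2m, the light chain of MHC class I, went the other way and was 3.07-fold higher in DLP. The list's mean deviation was 1.03 on VP 1 and 0.91 on VP 3, from -0.19 to 0.12 on the other VP arrays and from -0.57 to -0.10 in DLP. Without control DLP arrays 2, 4 and 5 (a choice made once the nerve markers described further on were known), the number lower was 13.

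Of 13 tested macrophage markers, 7 were lower in DLP and the other 6 did not pass, with a median of -0.74, and the complement genes C1qa and C1qb overlapped between the lobes. Their mean deviation was 0.62, 0.75 and 0.57 on VP 1, VP 3 and VP 4, -0.25 and -0.43 on VP 2 and VP 5, 0.39 on DLP 1 and -0.56 to -0.20 on the other DLP arrays. This list and the interferon list were both high on VP 1 and VP 3 and parted on DLP 1 and VP 4. C1qa and C1qb no longer passed without VP 1, VP 3, VP 4, DLP 2, DLP 3 or DLP 4, nor C1qb without DLP 5. Cd14 was 2.06-fold lower in DLP. The count of macrophage markers lower in DLP was 2 without control VP 1, VP 3, VP 4, DLP 2 or DLP 3, 3 without DLP 4, and without DLP 2, 4 and 5 together none was lower and 1 was higher. The part of macrophages in the interferon and mucosal differences was not tested.

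Genes that handle retinoids and foreign compounds were more often lower than higher in DLP among those that passed. Of 18 retinoid genes, 4 were higher in DLP and 7 lower, with a median of -0.02 that changed sign, to 0.09 without VP 1 and 0.06 without DLP 2. Crabp1, which binds retinoic acid in the cytoplasm, read 6.84, 6.71, 6.35, 6.32 and 6.23 in VP and 0.78, 1.80, 0.94, 0.66 and 0.91 in DLP. All DLP values of Crabp1 were below the array median, and the difference was -5.47 ± 0.19 (SE, adjusted p = 1.4e-10). Rxrg, a retinoid X receptor, ranged from 3.67 to 3.91 in VP and from 0.52 to 1.55 in DLP, and Aldh1a7 was 5.04-fold lower in DLP. Fabp5, a fatty acid and retinoid carrier, was 3.48-fold higher, and the retinol receptor Stra6 rose from 1.15 to 1.76 in VP to 2.29 to 2.83 in DLP.

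Of 50 genes of glutathione and xenobiotic metabolism, 12 were higher in DLP and 21 lower, with a median of -0.10. Cbr2, a carbonyl reductase, read 11.22, 10.98, 10.39, 11.07 and 10.66 in VP and 5.23, 6.22, 5.16, 5.38 and 4.79 in DLP. It stayed well above the array median in DLP, so its difference of -5.51 ± 0.23 (SE, adjusted p = 6.1e-10) was measured on both sides. The cytochromes Cyp2b10 and Cyp2f2 were 4.72-fold and 4.64-fold lower. Gsta2, a glutathione transferase, ranged from 0.29 to 1.24 in VP and from 3.07 to 4.12 in DLP, and Gss, the glutathione synthase, was 2.42-fold higher in DLP.

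Epithelial structure differed in its parts. Of 39 keratins and junction genes, 10 were higher in DLP and 16 lower, with a median of -0.10. The claudins split, with Cldn8 4.74-fold higher in DLP and Cldn10 3.34-fold lower, and the gap junction protein Gjb2 ranged from 6.63 to 7.21 in VP and from 3.67 to 3.87 in DLP. The desmosomal cadherin Dsc2 ranged from 1.07 to 2.31 in VP and from 3.74 to 4.12 in DLP, while E-cadherin (Cdh1) was 1.92-fold lower. Krt4 was 2.41-fold lower.

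Markers of the epithelial layers did not move together. Of 11 luminal markers, 2 were higher in DLP and 5 lower (median -0.12), and those higher were Prom1 and Cd24a. Prom1, the membrane protein CD133, read 5.23, 3.75, 4.65, 4.87 and 4.67 in VP and 8.36, 8.35, 8.41, 8.46 and 8.55 in DLP. Its DLP values were almost equal, and it was 13.9-fold higher there (adjusted p = 6.4e-09). Of 10 basal markers, 7 were higher in DLP and 3 did not pass, with a median of 0.55, among them Krt14 (1.78-fold), Krt15 (1.58-fold, with overlap, and not passing without DLP 3) and Ngfr (3.16-fold). Ngfr is also made by nerve and Schwann cells, and it was highest on DLP 5 and DLP 2. The mean deviation of the basal list ranged from -0.49 to -0.15 in VP and from 0.20 to 0.36 in DLP.

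Lipid synthesis and respiration were near the background, and the cell cycle genes that passed were lower in DLP. Of 39 genes of fatty acid and cholesterol synthesis, 8 were higher in DLP and 12 lower (median 0.02). Me1 was 2.87-fold higher, Sc5d 3.05-fold lower and Idi1 2.15-fold lower. Srebf1 did not pass, at 0.19 ± 0.08 (SE), but passed without VP 4. It also passed with array weights, with the 75th percentile filter or with the mean of the probe sets per gene. Of 54 oxidative phosphorylation subunits, 17 were higher and 11 lower (median 0.10), the latter falling to 6 without DLP 1 or DLP 5 and to 7 without VP 2, DLP 2, DLP 3 or DLP 4, and to 6 with array number as a block, and Atp5d of the ATP synthase was 2.01-fold higher while Sdha of complex II was 1.81-fold lower. Of 36 cell cycle genes, 15 were lower in DLP and 21 did not pass, with a median of -0.37, and 6 were lower without DLP 2, 4 and 5. Cdk6 was 3.90-fold lower, the inhibitor Cdkn1b 2.37-fold lower and Rrm2, a subunit of ribonucleotide reductase, 2.01-fold lower with overlap, so genes that drive and that restrain the cycle stood on the same side. The mean deviation of this list was 0.60 and 0.64 on VP 2 and VP 3 and between -0.23 and 0.10 on the other VP arrays. On the DLP arrays it ranged from -0.28 to -0.04, so VP 4 and VP 5 lay within the DLP range.

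The extracellular matrix list was near the background, with 11 higher and 11 lower of 53 and a median of 0.06. Its exception in size was Col4a6, a basement membrane collagen chain, which read 2.43, 2.04, 2.23, 2.50 and 2.00 in VP and 7.41, 6.81, 6.99, 7.24 and 7.25 in DLP. The highest VP value of Col4a6 lay far below its lowest DLP value, and the difference was 4.90 ± 0.13 (SE, adjusted p = 7.7e-12). Its partner chain Col4a5 was 1.99-fold higher. Lum, a small proteoglycan, was 2.79-fold higher, and Col6a3 and Thbs1 were 3.27-fold and 2.11-fold lower. Fibroblast markers counted 2 higher and 2 lower of 13 (median 0.07), with 1 lower without VP 1, VP 3, DLP 2, DLP 3 or DLP 4.

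Smooth muscle and nerve markers and a part of the endothelial markers were higher in DLP. Of 14 smooth muscle markers, 11 were higher and 3 did not pass, with a median of 0.67. Calponin (Cnn1) read 7.01, 6.74, 6.67, 6.42 and 6.76 in VP and 7.92, 7.85, 7.92, 8.19 and 7.81 in DLP, 2.32-fold higher and without overlap. Myosin light chain kinase (Mylk) and enteric actin (Actg2) were 2.20-fold and 2.18-fold higher. The mean deviation of the list ranged from -0.54 to -0.09 in VP and from 0.28 to 0.40 in DLP, so it was even among the DLP arrays. Of 6 tested striated muscle markers, 3 were higher and 2 lower. Of 13 endothelial markers 7 were higher and 6 did not pass (median 0.36), with Eng 1.58-fold and Plvap 1.56-fold higher, and 2 were higher without DLP 2, 4 and 5.

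Nerve markers differed among the DLP arrays themselves. Of 13 nerve and Schwann cell markers, 10 were higher in DLP and 3 did not pass, with a median of 1.67. Among members above the median on all 10 arrays, 0 were higher and the median was 0.22. The count of 10 therefore rests on members that lay below the array median on some arrays. Vip, a transmitter peptide of autonomic nerves, read 1.22, 0.12, 1.93, 1.09 and 0.91 in VP and 2.14, 7.38, 1.5, 5.86 and 6.47 in DLP. The vesicle fusion protein Snap25 read 0.84, 0.42, 1.46, 0.93 and 1.08 in VP and 1.88, 5.35, 1.64, 4.48 and 6.00 in DLP. Both were high on DLP 2, 4 and 5 and near the VP values on DLP 1 and 3, and Vip overlapped between the lobes. Npy, carried by sympathetic nerves, ranged from 3.28 to 6.59 in DLP and from 0.73 to 1.91 in VP. The mean deviation of the list was 1.59, 1.15 and 2.21 on DLP 2, 4 and 5, -0.08 and -0.26 on DLP 1 and 3, and -1.14 to -0.70 in VP. Without DLP 2, 4 and 5, 7 nerve markers were higher and the median was 0.77. All 3 tested neuroendocrine markers, which nerves share, were higher, and Syp, Ncam1 and Scg2 were each highest on DLP 5 and next on DLP 2.

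Neighbouring organs were looked for by their own markers. Of 12 seminal vesicle markers, 1 was tested, Ceacam10, which ranged from 1.86 to 2.13 in VP and from 4.61 to 7.50 in DLP. The seminal vesicle secretions Svs3a, Svs6, Pate4 and Sva lay below the array median on all 10 arrays, and Svs4 and Svs5 rose above it only on DLP 3, at 2.44 and 2.39, the array on which Ceacam10 was lowest in DLP. Spinkl rose above it only on DLP 5, at 1.92, the array on which Ceacam10 was highest. The part of seminal vesicle tissue in the Ceacam10 difference was not tested. Of 6 tested urothelial markers, 1 was higher and 2 lower, Upk1b 3.56-fold higher and Upk1a 2.33-fold lower, while Upk3a, Upk3b and Krt20 stayed below the median on all 10 arrays.

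Other genes with large differences belong to none of these roles. Nupr1, a small stress-induced nuclear protein, read 9.47, 10.48, 10.49, 10 and 9.52 in VP and 3.58, 4.85, 3.13, 3.19 and 3.33 in DLP. The lowest VP value of Nupr1 lay far above its highest DLP value, and the difference was -6.38 ± 0.31 (SE, adjusted p = 2.6e-09). Hdac9, a class IIa histone deacetylase, ranged from 6.27 to 6.79 in VP and from 1.14 to 1.97 in DLP, and the ubiquitin ligase Rnf186 from 5.77 to 7.0 and from 1.14 to 1.90. The secretoglobin Scgb2b27 ranged from 4.51 to 7.06 in VP and from 0.40 to 1.46 in DLP. The ribonuclease Rnase1 read 6.45, 2.23, 5.04, 3.72 and 7.55 in VP and 10.54, 10.39, 10.48, 10.39 and 10.42 in DLP, a difference of 5.45 ± 0.74 (SE, adjusted p = 4.5e-05). The complement protease C1ra and the proline-rich Prr9 ranged from 2.69 to 3.57 and from 0.49 to 0.95 in VP, and from 8.01 to 8.27 and from 5.26 to 6.46 in DLP.

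Relatives of these genes were examined after their values had been seen. Nxpe3 was higher in DLP by 5.70 ± 0.15, while Nxpe4 and Nxpe2 differed by -5.53 ± 0.22 and -3.79 ± 0.25 (SE). Nxpe4 read 6.97, 8.26, 6.92, 7.50 and 7.95 in VP and 1.83, 2.17, 1.77, 2.14 and 2.05 in DLP. The NAIP sensors of bacterial proteins, Naip6 and Naip5, were both lower in DLP, by -4.65 and -3.19, and both could share probes, so their separate values are uncertain. Glb1l2 and Glb1l3, which are neighbours on their chromosome, were both higher, at 4.83 and 8.11. Of 15 pairs of neighbouring tested genes that both differed by over 4-fold, 13 had the same direction. Over all 11232 neighbouring pairs, whatever the size of the difference, 54.2% shared a sign, so the 2 shares are at unlike thresholds. The 13 pairs included relatives, such as Naip5 with Naip6 and Nxpe4 with Nxpe2, and Trpv6 was paired with both Ephb6 and Kel. Rnase1 and Ang, ribonucleases of 1 family, were higher by 5.45 and 4.50.

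Several genes varied together within a lobe. On the VP arrays Pbsn, Msmb, Rnase1, Mmp7 and Defb1 were each lowest on VP 2 and highest on VP 5, and Defb1 read 9.38, 5.93, 9.08, 8.26 and 10.01. Tgm4, Pate14, Glb1l3 and Gsdma stayed at or below 2.02 on every VP array. In DLP, of the 19 genes over 16-fold lower there, 15 were highest on DLP 2, whose median for them was 2.36 against 1.82 to 1.98 on the other DLP arrays. Of the 28 genes over 16-fold higher in DLP, 10 were highest among VP arrays on VP 5. Whether tissue of the other lobe is part of these values was not tested.

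**Figure D4:**
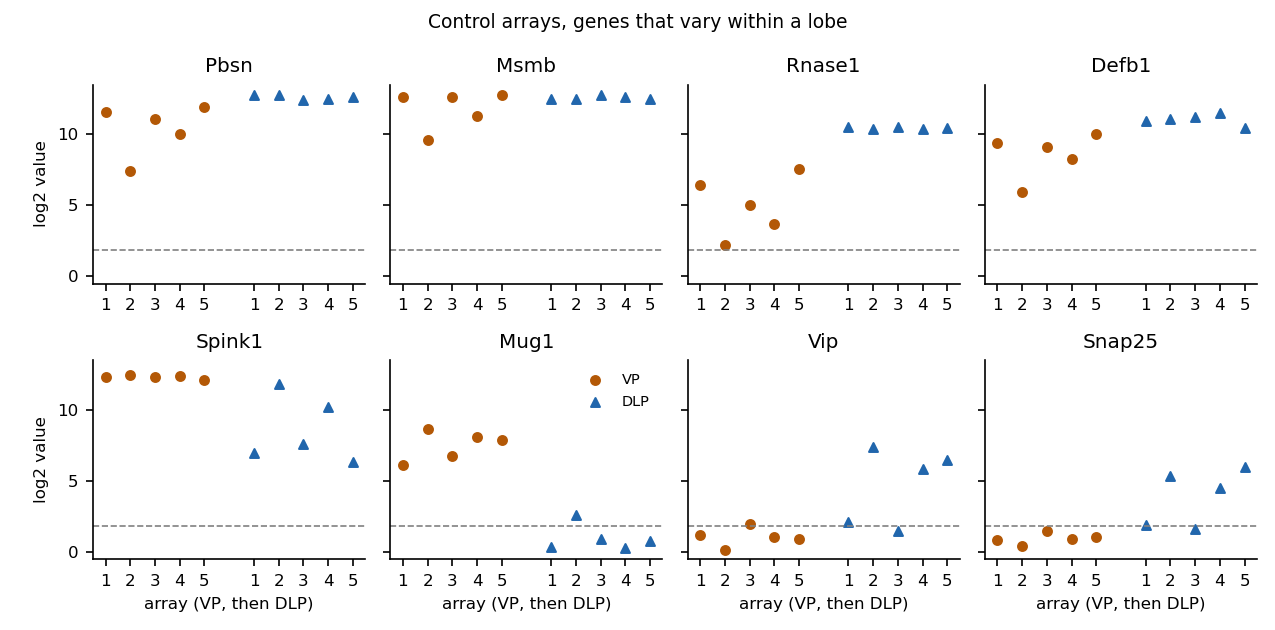
Values (log2) of 8 genes on each control array, VP arrays 1 to 5 as circles on the left of each panel and DLP arrays 1 to 5 as triangles on the right, with the array median dashed. Pbsn, Msmb, Rnase1 and Defb1 are lowest on VP 2 in VP, Spink1 and Mug1 are highest on DLP 2 in DLP, and Vip and Snap25 are high on DLP 2, 4 and 5.

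The same lobe difference was measured on arrays of the high fat diet, which share no array with the comparison above. There 11619 of the 23573 probe sets passed (49.3%). Of the 11693 probe sets that passed on the control diet, 97.8% had the same sign and 77.8% also passed, while 21.2% of those that had not passed did so on the high fat diet. All 412 probe sets over 4-fold kept their sign and passed, and 9 of the 11693 passed with the opposite sign. Tgm4 differed there by 10.84, Pate14 by 10.54, Mug1 by -6.58 and Nupr1 by -6.06. Spink1 differed by -6.95 against -3.72 on the control diet, Vip by 1.31 against 3.62 and Cyp2b10 by -4.03 against -2.24, and none of these 3 passed the test of the difference between diets, at adjusted p = 0.638, 0.624 and 0.153.

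**Figure D5:**
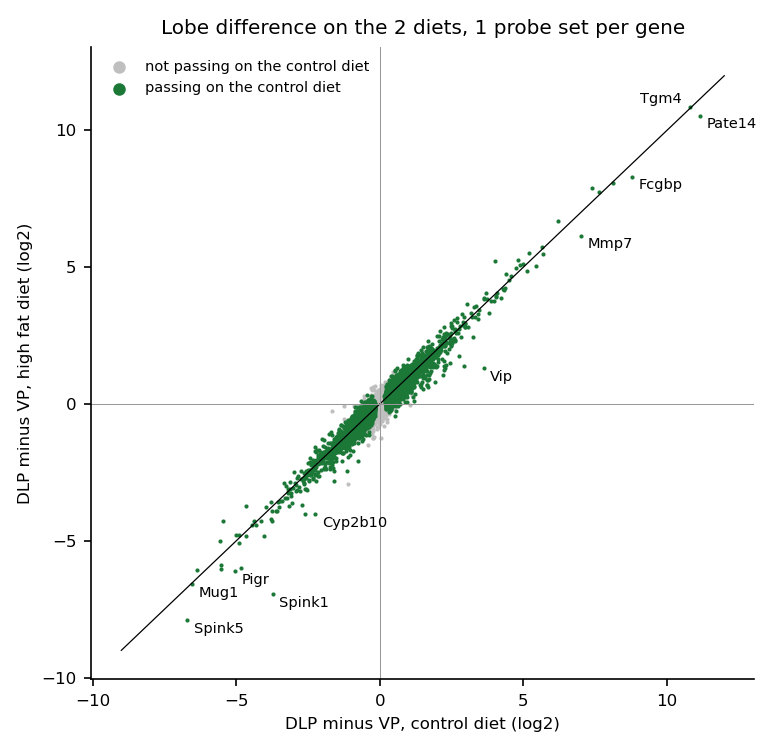
Lobe difference (DLP minus VP, log2) on the high fat diet against that on the control diet for each of 11274 genes, with the line of equality. Tgm4 lies at 10.80 and 10.84, and Spink1, at -3.72 and -6.95, lies away from the line.

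The test of the difference between diets, fitted to all 19 arrays, passed for 2 of 23573 probe sets (0.00848%), with a smallest adjusted p of 0.0285 by limma and 1956 probe sets at an unadjusted p under 0.05. These were a probe set of Ikbkg, a regulator of NF-kappaB, which differed between the lobes by -0.39 on the control and 0.69 on the high fat diet, and a probe set of Akr7a5, an aldehyde reductase, at 0.84 and -0.02. Leaving out any one of control VP 1, VP 4, VP 5, DLP 2 or DLP 3, or of high fat diet VP 1, VP 2, VP 4, VP 5, DLP 1, DLP 2 or DLP 3, left no probe set past the threshold.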

How the data were processed

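Whole prostate lobes were profiled on 3′ expression arrays. The authors deposited 1 table of values per probe set on a log scale, read here as log10 of a MAS5 signal (MAS5 per the submitters' processing notes), and for the step that gave all arrays the same set of values no source used here has a description. Both the log base and the offset of 1 were inferred from the range of the deposited values, from 0.00 to 3.99 in log10 units, and the deposited log10 values were converted to log2.

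DLP minus VP was fitted with limma 3.58.1 in R 4.3.3 (lmFit, eBayes with trend) on the 10 control arrays, with Benjamini-Hochberg adjustment over 23573 probe sets and a threshold of 0.05. The high fat diet arrays were fitted separately, and the diet interaction on all 19. A gene was represented by its probe set of highest mean. Of 2189 genes with over 1 probe set that passed, 237 had probe sets passing in opposite directions. Symbols came from the platform annotation, updated by gene ID to GRCm38.p6 for 20099 of the 20140 probe sets with 1 symbol, while 572 had several and 2861 none.

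The members and lists were chosen with earlier results of these data known. Named genes were the 15 largest non-overlapping differences in each direction, up to 3 passing members per direction and 2 not passing from each list, all members of lists with at most 6 tested genes, lobe markers and up to 5 genes of the interaction. Ang, Glb1l2, Naip5, Nxpe2 and Slc12a2 were named after their values were seen. Deviations of same-numbered arrays correlated at -0.03 to 0.19, over 0.1 in 2 of 5 pairs, so the number was not taken to pair arrays.

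The fit was tested on simulated data for DLP minus VP on the control diet over 23573 probe sets. It recovered 64.2%, 95.5% and 98.5% of changes of 0.5, 1 and 2 log2 units, with 7 false among 179 calls. Only 67, 67 and 66 probe sets were changed there, with noise independent between arrays and probe sets. In the data 49.6% of probe sets passed, so these rates do not carry over to the real comparison. Alternatives covered the filter, the offset, the probe set rule, the variance prior, array weights, the threshold and each array left out. The number of arrays limits the precision.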

Additional observations from a re-analysis of the deposited data

Results flagged for a closer look

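In 302 groups of 5 arrays examined, 19 held an array far from the other 4 for that gene (a gap to the nearest over 0.71 of the range). Chance alone marks about 1 in 20 groups. In VP, the lowest array stood apart for Glb1l3 (0.15 on VP 1), Creld2 (6.75 on VP 3), Nlrp10 (0.31 on VP 4), Npy (0.73 on VP 2), Slc26a3 (0.48 on VP 3) and Naip5 (4.46 on VP 5). The highest VP array stood apart for B4galnt2 (6.63 on VP 4) and Cdkn1b (6.76 on VP 4).

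In DLP, array 1 was the high one for Pigr (7.65), Cxcl17 (3.45), Jchain (4.39), Arg1 (3.03), C1qb (3.91) and Hoxb9 (3.86). Array 2 was the high one for Mug1 (2.63), Crabp1 (1.80) and Nupr1 (4.85), and array 5 for Spink8 (6.69). Sdha was low on DLP 3 (6.28).

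The lobe difference itself differed between the diets, by the interaction test of limma, for a probe set of Ikbkg (1.08, adjusted p = 0.029) and a probe set of Akr7a5 (-0.86, adjusted p = 0.029).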

How the results depend on the processing

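The count of 11693 probe sets moved by over 1.5 times under 5 alternatives. It was 7329 (3672 higher and 3657 lower in DLP) with a filter at the 75th percentile and 2113 (1081 and 1032) when tested against 1.5-fold. It was 7450 (3671 and 3779) without control DLP 2, 4 and 5, which was added after seeing the data and leaves 2 DLP arrays. With 1 probe set per gene it was 6055 (3052 and 3003), and with the mean per gene 6167 (3096 and 3071). These per-gene counts are of 11274 genes and not of 23573 probe sets, so they are not on the same scale. The 6055 was adjusted over genes, whereas the 5987 genes given earlier were adjusted over all probe sets. The count over 2-fold, 1976, became 904 with an offset of 8. Counted in genes, it was 1129 with 1 probe set per gene and 978 with the mean per gene. The diet interaction count, 2, became 1 with the 75th percentile filter and 0 with 1 probe set per gene.

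With each array left out in turn, 10775 to 11780 probe sets passed, 5247 to 5789 higher and 5492 to 5991 lower in DLP, 1934 to 2080 over 2-fold, and 0 to 3 in the interaction. The share repeated on the high fat diet ranged from 70.8% to 79.5%. The replicate block, with array number as the pairing, gave 11417 probe sets (5577 higher and 5840 lower), 1986 of them over 2-fold, and 6 oxidative phosphorylation genes lower in DLP in place of 11. Of 141 named genes that passed, 136 passed with any 1 array left out and 121 under all other alternatives in which they were tested. Genes below a stricter filter, such as Tgm4, were not tested under it. No named gene changed sign under the alternatives. Medians near 0 did so under at least 1 alternative for the retinoid, polyamine, fatty acid and cholesterol, matrix, fibroblast and urothelium lists, to 0.19 for retinoid genes with the filter on all 10 arrays, -0.12 for fatty acid and cholesterol genes and 0.30 for urothelium markers with the 75th percentile filter.

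The filter bears on lists near background: 10 nerve markers were higher in DLP, but 1 with the 75th percentile filter, which drops low genes. Macrophage markers lower in DLP numbered 3 with a robust variance prior. Signal near the array median limits the size of large folds, and values set by rank limit what can be said of changes common to most genes.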
